A study of Mus musculus with 3 samples.

Results

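The 9 genes described here, Ifit1, Ifit2, Ifit3, Rsad2, Cmpk2, Isg15, Usp18, Mx1 and Mx2, are early interferon-stimulated antiviral genes. They were chosen by name out of 22350 protein-coding genes annotated on mouse chromosomes 1 to 19 and X. The choice was made with earlier results of these data known. Pol_II phosphorylated at Ser5 of its carboxy-terminal repeat was mapped by ChIP-Seq (antibody ab5131) in macrophages grown for 7 days from bone marrow of female Fvb mice (Fvb/Hsd in the study’s methods) in L929-conditioned medium. Of the 3 libraries, 1 holds Ser5 from cells without treatment, 1 holds Ser5 from cells treated with LPS (lipopolysaccharide, a bacterial cell wall component) at 10 ng/ml for 2 h, and 1 holds input DNA of untreated cells, sequenced without antibody. The labels name no allele or transgene for any of them. There was 1 library per condition and no input from LPS-treated cells, so no test between conditions was possible, and each interval in brackets is an exact 95% interval for counting error alone.

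Macrophages sense LPS through Toll-like receptor signalling, which activates IRF3 and NF-kB and induces interferon beta. Interferon then acts back on its receptor and, through transcription factors that include STAT2 and IRF9, on a DNA motif called the interferon-stimulated response element (ISRE). Among the targets, the IFIT proteins bind viral RNA, RSAD2 (viperin) and its neighbour CMPK2 act on nucleotides, ISG15 is a ubiquitin-like protein that is attached to other proteins, USP18 removes it and also damps the interferon receptor, and MX1 and MX2 are dynamin-like GTPases that block viruses.

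The DNA just before these genes is shown first, because most LPS Ser5 tags of Ifit2 lie far downstream of its annotated start. In each line the capitals mark the core of the ISRE, GAAANNGAAA on either strand. The stretches for Isg15 (chr4:155574928-155575027, minus strand), Rsad2 (chr12:27141318-27141457, minus strand), Ifit3 (chr19:34657859-34658018, plus strand) and Ifit1 (chr19:34715254-34715360, plus strand) lie before the start site of RefSeq (taken from build GRCm38.p6 and placed in mm9 by exact match). The line for Ifit2 (chr19:34644609-34644708, plus strand, mm9) is the end of the intron before its second annotated exon. None of the lines holds annotated exon sequence.
Isg15: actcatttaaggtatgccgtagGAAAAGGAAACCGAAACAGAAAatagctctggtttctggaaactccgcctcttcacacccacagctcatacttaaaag
Rsad2: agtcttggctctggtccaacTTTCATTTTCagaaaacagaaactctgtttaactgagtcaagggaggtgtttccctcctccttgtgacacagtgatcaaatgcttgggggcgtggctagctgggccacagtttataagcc
Ifit3: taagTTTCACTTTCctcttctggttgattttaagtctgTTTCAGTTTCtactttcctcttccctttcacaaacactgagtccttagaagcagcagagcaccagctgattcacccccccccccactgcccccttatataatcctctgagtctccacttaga
Ifit1: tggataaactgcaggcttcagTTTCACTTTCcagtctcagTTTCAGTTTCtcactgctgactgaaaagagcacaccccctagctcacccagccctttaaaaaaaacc
Ifit2, before exon 2: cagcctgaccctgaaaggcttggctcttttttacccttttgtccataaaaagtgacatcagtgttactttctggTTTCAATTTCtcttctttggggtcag

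The RefSeq promoter table held 6 of the 9 genes with 7 starts, 2 of them for Ifit2. An ISRE core lay in the 250 bases before 4 of these 7 starts, against 2.98% of all 32851 promoters. Isg15 held 3 overlapping cores, beginning 78, 72 and 66 bases before its start. Ifit1 held 2, beginning 104 and 85 bases before its start, and Ifit3 held 2, beginning 156 and 122 bases before it. Rsad2 held 1, beginning 120 bases before its start. Cmpk2 and both RefSeq starts of Ifit2 had no match in that window, whereas the 250 bases before the second exon of Ifit2 held 1, beginning 26 bases before the exon. Of the other motifs searched on both strands, the GAS letters TTCNNNGAA (7.02% of all promoters) were found only at 1 start of Ifit2, beginning 241 bases before it. The TATA box letters TATAAA (12.4%) were found only before Rsad2, on the opposite strand 10 bases before the start, and the NF-kB letters GGGANTTTCC (0.356%) were in none of the 7 windows. Matching letters do not show a bound site. Usp18, Mx1 and Mx2 have no entry in the table.

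Over the gene body, from the annotated start to the annotated end, all 9 genes had at least 2 times more Ser5 after LPS, counted in TPM, here tags per 1000000 tags of the library. Among the 17386 coding genes whose Ser5 tags summed to 10 or more, 5.83% reached that size and the median ratio was 0.874. The ratios of the 9 genes ran from 3.80 to 90.6 with a median of 12.7. Together their bodies took up 0.0271% of the untreated Ser5 tags and 0.515% of the tags after LPS, and Rsad2 alone held 47.3% of the latter. The rank of each gene among the 17386 is given below, with rank 1 the highest ratio.

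**Figure D1:**
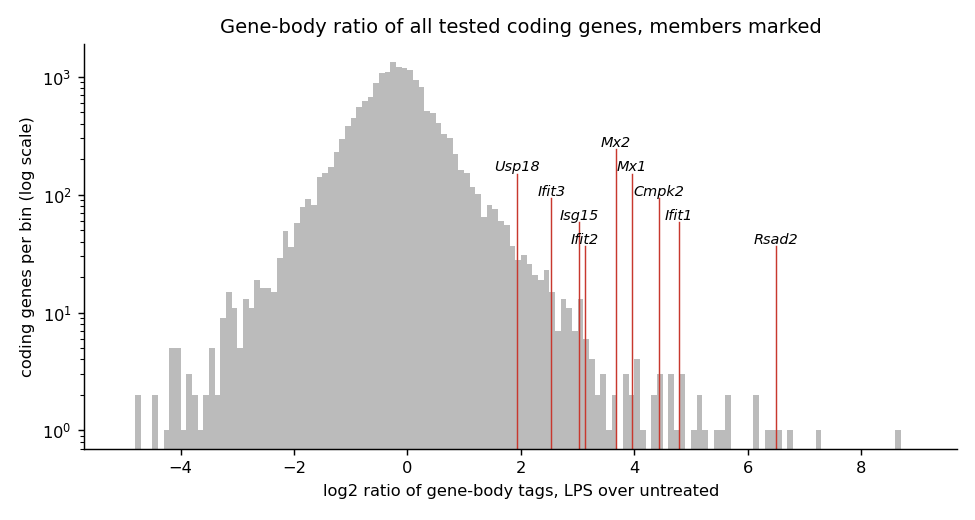
Distribution of the gene-body ratio of Ser5, LPS over untreated, on a log2 scale (x axis) for the 17386 tested coding genes (y axis, genes per bin on a log scale), with red lines at the 9 antiviral genes. All 9 lie to the right of the bulk, between 3.80-fold (Usp18) and 90.6-fold (Rsad2).

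Rsad2 encodes viperin, a radical enzyme of the endoplasmic reticulum that makes a chain-terminating nucleotide. Its body (chr12:27127618-27141317, minus strand) had 205 tags in untreated Ser5, 15243 after LPS and 82 in the input. This is a ratio of 90.6 (79.0 to 105), rank 4 of all coding genes tested. Per length it had 178 TPM per kb after LPS, the highest of the 9 genes, from 1.96 before. Untreated Ser5 stood 2.47 times (1.90 to 3.23) above the input. Counting identical tags once lowered the ratio to 66.1. A single deposited LPS peak of 16060 bp covered 100% of the gene and ran from 409 bp before the TSS to 15650 bp after it, past the end of the gene, where the untreated list had 2 short peaks covering 4.78% of the body.

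Cmpk2, a mitochondrial nucleoside monophosphate kinase, lies head to head with Rsad2, with 12752 bp between the starts. Its body (chr12:27154069-27164700, plus strand) had 256, 4559 and 46 tags in untreated Ser5, LPS Ser5 and input. The ratio was 21.7 (19.1 to 24.7), rank 24, so that both genes of the pair were far above the coding median while their untreated densities, 1.96 for Rsad2 and 3.16 for Cmpk2 in TPM per kb, differed by less. The sequence between the pair, leaving out 1 kb next to each start, had 18 tags before LPS, 116 after it and 54 in the input, which is 7.85 times more (4.76 to 13.7) than in untreated cells and 2.59 times (1.86 to 3.65) the input. No untreated peak and 3 LPS peaks touched this gap. The strongest LPS peak (chr12:27144851-27145318) had a deposited score, minus 10 log10 of the peak caller's p-value, of 218 and held 7 tags before LPS and 32 after.

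Ifit1, whose protein binds viral RNA by its cap end, started near the input. Its body (chr19:34715361-34724499, plus strand) had 80 tags before LPS, 1812 after it and 65 in the input. The untreated level was 1.22 times the input (0.867 to 1.72), an interval that holds 1, and the ratio after LPS was 27.6 (22.1 to 34.98), rank 20. Its TSS lies 128 bp from that of the oppositely oriented 2010002M12Rik, so the window around the start serves both genes. The body of 2010002M12Rik went from 64 to 204 tags, a ratio of 3.88 (2.92 to 5.23), so the tags past the shared start lay mostly on the Ifit1 side.

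Ifit3 was the gene with the fewest tags. Its body (chr19:34658021-34663221, plus strand) had 13, 62 and 10 tags in untreated Ser5, LPS Ser5 and input, a ratio of 5.81 (3.16 to 11.5), rank 116. Only tags with a single match in the genome were kept, and much of Ifit3 is repeated sequence. Of the places in its body where a tag could lie, 52.6% had a unique sequence at the 45 bases of the untreated tags and 40.6% at the 30 bases of the LPS tags, against 86.0% to 98.4% for the bodies of the other 8 genes at those 2 lengths. Counted per unique position the ratio of Ifit3 was 7.53. Unique here means that the exact sequence occurs once. The study's alignment allowed up to 2 mismatches, so fewer positions may have been usable than these shares say. The neighbouring paralogue I830012O16Rik, with 42.1% unique positions at the LPS tag length, had 1 tag before LPS and 21 after it. Gm14446, between the pair, had 7 tags before LPS, 10 after it and 26 in the input over its body, and 0, 14 and 3 in its TSS window, where a count of 0 allows up to 3 tags.

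The Mx genes lie on chromosome 16 and differed little in ratio. Mx1 (chr16:97668642-97684514, minus strand) had 203 tags before LPS, 2596 after it and 43 in the input, a ratio of 15.6 (13.5 to 18.1), rank 35. Mx2 (chr16:97757690-97782506, plus strand) had 405, 4236 and 92 tags, a ratio of 12.7 (11.5 to 14.1), rank 39. The intervals of the ratios overlapped. After LPS the densities were 26.2 and 27.3 TPM per kb.

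Isg15 and Usp18 act on the same protein modification and were the members with the most untreated Ser5 per length of gene body. Isg15 (chr4:155573533-155574927, minus strand), only 1395 bp long, had 51 tags before LPS, 341 after it and 6 in the input, a ratio of 8.15 (6.06 to 11.2), rank 66. Its untreated body density of 4.80 TPM per kb was 8.41 times the input (3.61 to 24.0), and most of so short a body lies inside the TSS window, where Usp18, Cmpk2, Mx2 and Mx1 had more untreated tags than Isg15. Usp18 (chr6:121195924-121220934, plus strand) had 679, 2117 and 169 tags, a ratio of 3.80 (3.48 to 4.15), the lowest of the 9 genes and rank 262. Its untreated density of 3.56 was 3.97 times the input (3.35 to 4.73), and 13.5 after LPS was below 6 of the other 8 genes.

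**Figure D2:**
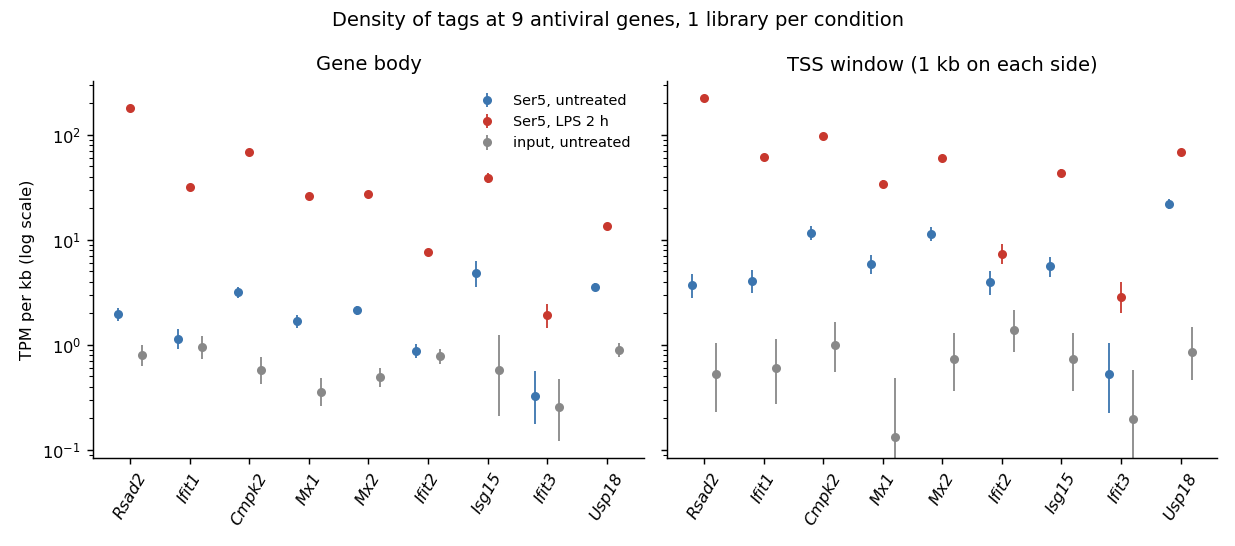
Density of tags (y axis, TPM per kb, log scale) in untreated Ser5 (blue), Ser5 after 2 h of LPS (red) and untreated input (grey) over the gene body (left) and the TSS window (right) of each gene, with exact 95% Poisson intervals. The red points stand above the blue ones for all 9 genes in both panels, and the gap is narrowest for Ifit2 at the TSS window (3.94 against 7.36).

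In untreated cells most of the genes already carried Ser5 at the start. In the TSS window, 1 kb on each side of the annotated start, a deposited peak was found for 8 of the 9 genes in untreated Ser5 (48% of all coding genes) and for 9 of 9 after LPS (45.9%). The gene without an untreated peak was Ifit3. Untreated TSS-window tags were highest for Usp18, at 335 tags or 25.5 times the input (14.7 to 48.4), with a peak score of 2670. Cmpk2 had 177 tags (11.7 times the input, 6.89 to 21.3) and Mx2 173 (15.6 times, 8.48 to 31.7). Mx1 (89), Isg15 (85), Ifit1 (62), Ifit2 (60) and Rsad2 (56) had fewer, and each stood above the input by an interval that left out 1. Ifit3 had 8 tags against 3 in the input, whose interval (0.633 to 15.4) holds 1.

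After LPS the TSS window was at least 2 times higher for 8 of the 9 genes, against 5.58% of 12535 coding genes, whose median ratio was 0.831. The ratio was 60.7 (46.6 to 80.5) for Rsad2, from 56 to 2788 tags, and 14.998 (11.6 to 19.8) for Ifit1, from 62 to 763. It was 8.36 for Cmpk2 (7.13 to 9.84), 7.70 for Isg15 (6.11 to 9.80), 5.83 for Mx1 (4.63 to 7.42), 5.48 for Ifit3 (2.51 to 13.7), 5.28 for Mx2 (4.47 to 6.26) and 3.14 for Usp18 (2.77 to 3.58). Ifit2 fell short with 60 tags before LPS and 92 after it, a ratio of 1.87 (1.34 to 2.63). With identical tags counted once the ratio of Rsad2 was 33.2.

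The rest of the gene, from 1 kb after the TSS to the end, was compared with the TSS window. Isg15 is too short for such a part, and in the other 8 genes the factor was larger over the rest of the body in 8 of 8, against 77.5% of the 697 coding genes that were at least 2 times higher over the body and had 10 tags in both parts. This comparison is made within the libraries and does not depend on their scaling. Most coding genes that were higher thus showed the same order. The rest-of-body factor over the TSS factor was 5.39 (4.13 to 7.06) for Cmpk2, 3.06 (2.28 to 4.09) for Mx1 and 2.60 (2.12 to 3.18) for Mx2. It was 1.90 (1.28 to 2.81) for Ifit1, 1.60 (1.16 to 2.19) for Rsad2 and 1.24 (1.05 to 1.46) for Usp18. For Ifit3 it was 1.27 with an interval of 0.360 to 4.56, which holds 1. The median of the 697 genes was 1.46, above the values of Usp18 and Ifit3. These 697 were kept for a rise over the body, which includes the rest of the body, so their share and median are raised by that choice. Over all 11785 coding genes with 10 tags in both parts the median was 1.05. For Ifit2 this quotient was 5.49 (3.72 to 8.05) from the annotated TSS. With the window moved to the second exon, where the LPS tags rise, the ratio at the start was 13.5. From that exon to the end it was 19.4. Both parts hold the 1 kb after the exon start, so they overlap, unlike the parts compared in the other genes.

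**Figure D3:**
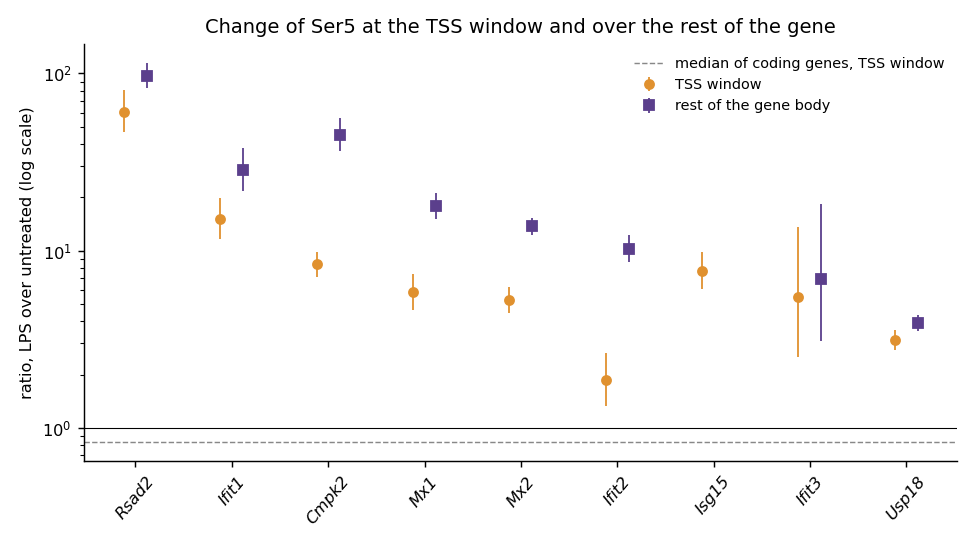
Ratio of Ser5 TPM, LPS over untreated (y axis, log scale), in the TSS window (orange circles) and over the rest of the gene body (purple squares) of each gene, with exact 95% intervals, and the coding-gene median of the TSS window (dashed, 0.831). The purple square lies above the orange circle in the 8 genes that have both, with overlapping intervals for Ifit3 and Usp18. The circle of Ifit2 is taken at its annotated TSS.

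Cmpk2 shows this in the tags themselves. Before LPS its TSS window held 177 tags and the 9631 bp after it 93, and after LPS they held 1214 and 3435. The density at the start was 9.16 times that of the rest before LPS and 1.70 times after it. In Mx1 the same quotient went from 4.32 to 1.41, in Mx2 from 6.09 to 2.34, in Ifit1 from 4.58 to 2.41 and in Rsad2 from 2.25 to 1.40. In Usp18, where the factors differed least among the genes whose interval left out 1, it went from 7.87 to 6.34. Deposited peaks also took up more of each body after LPS, which alone does not show a shift of density away from the start. They covered 2.08% of the Ifit1 body before LPS and 96.0% after it, 8.48% and 97.1% for Cmpk2, 3.56% and 92.0% for Mx1, 14.3% and 93.7% for Mx2, 14.7% and 84.4% for Usp18, and 0% and 10.9% for Ifit3.

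In Ifit2 most LPS tags lay far downstream of the annotated start. The gene is annotated from chr19:34625184 to 34650909 on the plus strand, and its second exon begins 19525 bp into it. Over the whole body it had 173 tags before LPS, 1240 after it and 151 in the input, a ratio of 8.74 (7.45 to 10.3), rank 54. From the start to the base before the second exon (34625184 to 34644708) there were 111, 253 and 117 tags in untreated Ser5, LPS Ser5 and input. From the second exon to the end (34644709 to 34650909) there were 62, 987 and 34. The ratio of LPS over untreated was 2.78 (2.21 to 3.50) in the long upstream part and 19.4 (15.002 to 25.5) from the second exon on.

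The step stood within 500 bp. The 500 bp before the second exon had 5 tags before LPS and 24 after it, and the first 500 bp from the exon start had 21 and 264. Unique tag positions made up 94.8% of the former stretch and 92.4% of the latter at the LPS tag length. A deposited LPS peak with a score of 2747 lay at chr19:34644669-34645219, and an untreated peak with a score of 139 at chr19:34644628-34644906. Both begin within 100 bp of the exon start and cover or touch the ISRE core printed above. In a window of 1 kb on each side of the second exon, chosen after the data were seen, there were 31 tags before LPS and 343 after it, a ratio of 13.5 (9.32 to 20.2), where the annotated TSS window gave 1.87. The annotated start had Ser5 peaks in both libraries as well, with 32 tags before LPS and 52 after it in the untreated peak that overlaps the start and a score of 370 for the LPS peak there. Before LPS the window at the annotated start held more tags (60) than the window at the second exon (31). A further peak lay downstream of the annotated start in both libraries, in untreated Ser5 at chr19:34627533-34627882 with a score of 130, and after LPS at chr19:34627306-34628585 with a score of 467, where the tags went from 33 to 90.

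**Figure D4:**
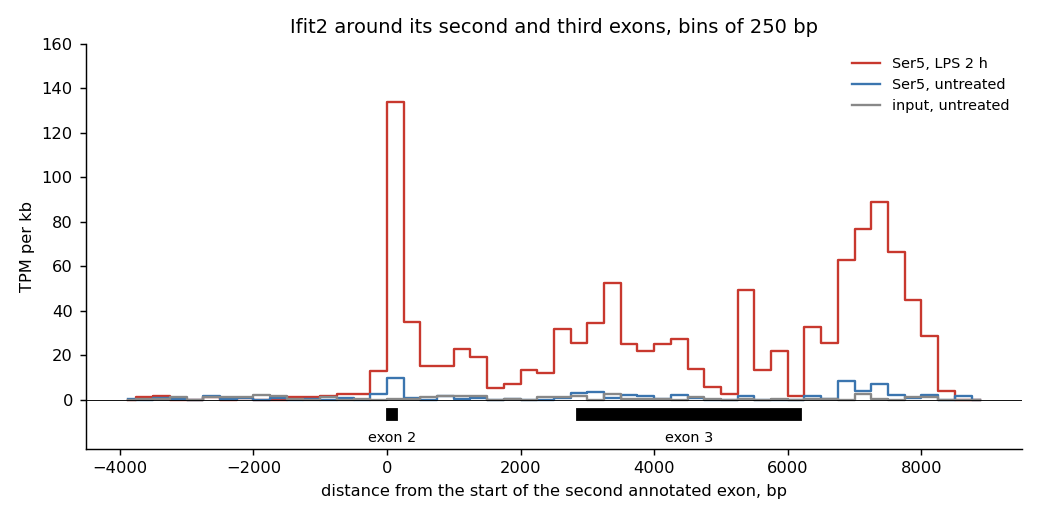
Ifit2 in bins of 250 bp, with the distance from the start of the second annotated exon in bp on the x axis and TPM per kb on the y axis for LPS Ser5 (red), untreated Ser5 (blue) and input (grey), and black boxes for exons 2 and 3. The LPS line goes from 12.8 in the bin before exon 2 to 134 in the bin that begins with it, and has another maximum of 89.0 past the end of exon 3.

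Ser5 ran on beyond the annotated ends. Among the 8 genes with a rest of the body, 6 had a higher LPS density in the 2 kb after the end than over the rest of the body, against 63.5% of 576 coding genes at least 2 times higher with enough tags, so that the share is close to the background. The quotient was 6.92 for Ifit2, 2.47 for Mx2, 1.65 for Mx1, 1.63 for Usp18, 1.59 for Ifit1 and 1.05 for Rsad2, and below 1 for Cmpk2 (0.673) and Ifit3 (0.630). For Ifit2 the rest of the body includes the long stretch before the second exon, which lowers its density. From that exon to the end LPS Ser5 of Ifit2 was 25.5 TPM per kb, against 53.1 in the 2 kb after the end. With identical tags counted once it was above 1 in 5 genes. The comparison was chosen after the profiles had been seen.

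Several genes had a second maximum near the end. In bins of 500 bp, LPS Ser5 of Rsad2 was 615 TPM per kb at the start and 321 in the bin across its 3′ end, against a median of 149 in the bins of the gene between. In Mx1 the start bin had 69.1 and the bin after the end 68.8, with a median of 20.8 between them. The highest bin of Mx1, at 79.0, began 1 kb after its start. In Mx2 a bin 1.68 kb past the end had 95.4, with a median of 22.7 over the gene, and in Ifit1 a bin 1.86 kb past the end had 65.9 against 21.6. Beyond these maxima the signal dropped. From 5 to 10 kb after the end LPS Ser5 was below the input of the same stretch for Rsad2 (0.160 TPM per kb), Ifit1 and Mx1 (0.384 each), Ifit3 (0.288) and Usp18 (0.0960), though the interval against the input left out 1 only for Ifit1 and Usp18. It was above the input for Mx2 at 3.62, which is 6.49 times the input (4.05 to 10.9), and for Isg15 at 1.54 (5.26 times, 2.69 to 11.2). It was also above it for Ifit2 at 2.02 (5.42 times, 3.01 to 10.48) and for Cmpk2 at 0.832 (2.41 times, 1.19 to 5.11). The stretch after Ifit2 holds the start of Ifit3, and that after Isg15 lies in Agrn.

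**Figure D5:**
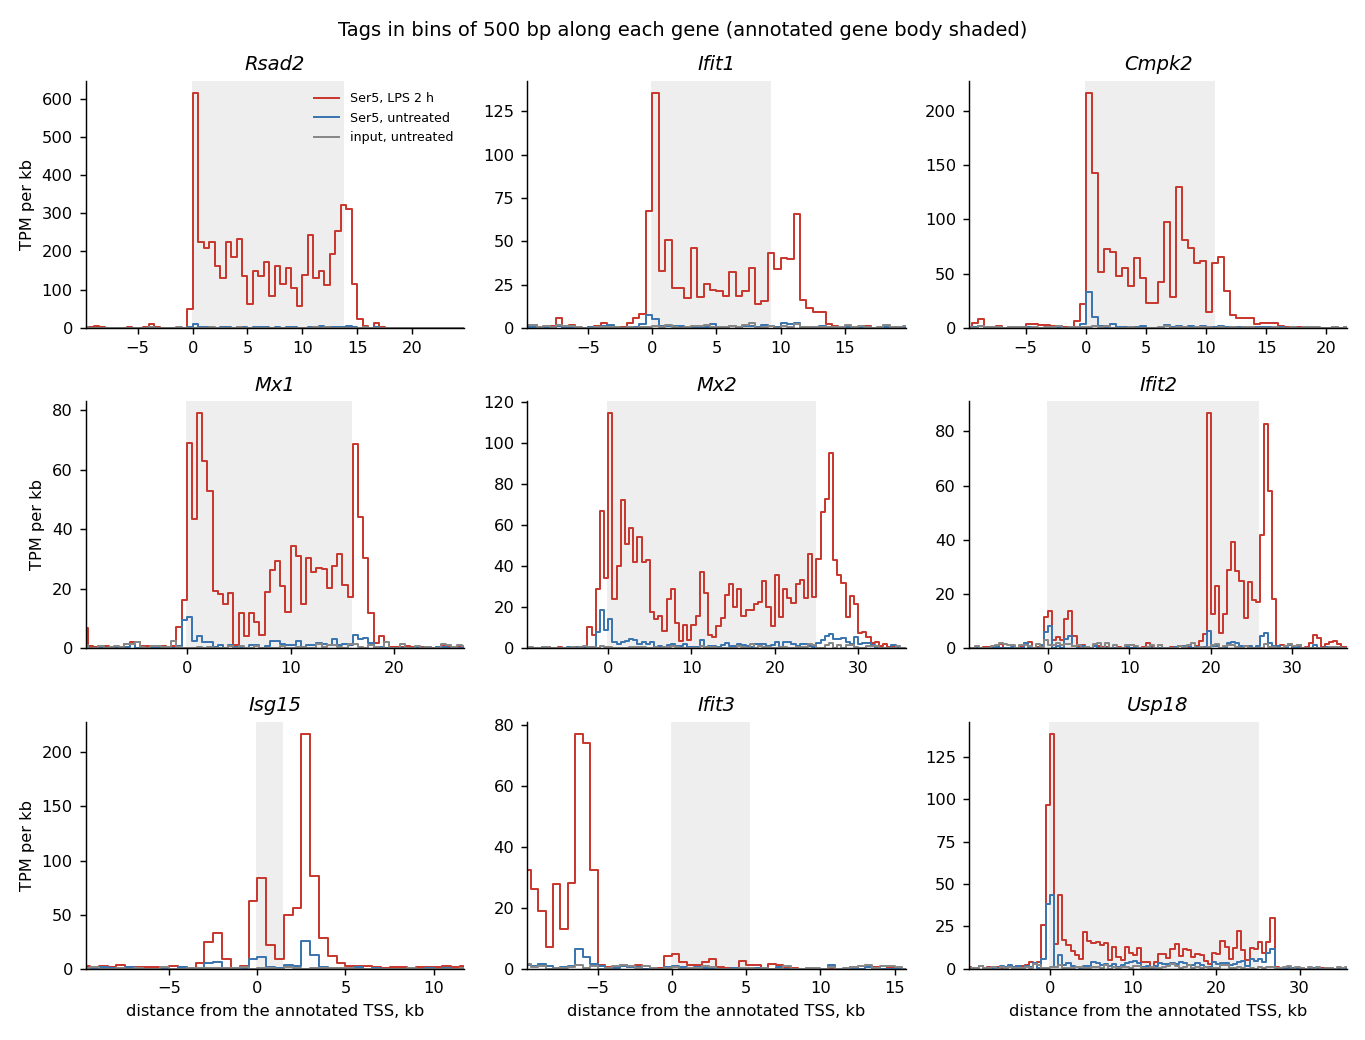
TPM per kb (y axis, a scale of its own for each gene) in bins of 500 bp by distance from the annotated TSS in kb (x axis), for LPS Ser5 (red), untreated Ser5 (blue) and input (grey), with the annotated gene shaded. LPS Ser5 fills the shaded part in Rsad2, Ifit1, Cmpk2, Mx1, Mx2 and Usp18, lies mostly from about 19.5 kb after the annotated TSS onwards in Ifit2, and has its highest bin past the end of Isg15 (217).

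The genes next to the antiviral genes limit what can be assigned to them. Past Isg15 the highest bin, 2.5 kb from its start, had 25.7 TPM per kb before LPS and 217 after it, more than the 83.8 at the Isg15 start itself. This bin lies inside the TSS window of Agrn, which follows Isg15 on the same strand, and ends before the Agrn TSS, 3391 bp from the Isg15 start and 1997 bp past the Isg15 end. The next bin, which holds the Agrn TSS, had 12.9 before LPS and 85.4 after it. The Agrn TSS window went from 157 to 1063 tags, a ratio of 8.25 (6.97 to 9.82), and its whole body from 86 to 493 with 88 in the input. Tags running on from Isg15 and tags starting at Agrn cannot be told apart in these data. On the other side, AW011738, which starts 2486 bp from Isg15 in the opposite direction, went from 30 to 107 tags in its body, a ratio of 4.35 (2.88 to 6.75).

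Downstream of Mx2 the convergent Tmprss2, whose 3′ end lies 3785 bp away, had 108 tags before LPS and 338 after it. Its own TSS window had 0 tags before LPS, 1 after it and 1 in the input, where a count of 0 allows up to 3 tags. The last LPS peak on Mx2, 15135 bp long, ran to 31799 bp from the Mx2 start, inside Tmprss2. Around Mx1, Bace2 was below 2 times (68 to 63 tags, ratio 1.13) and Fam3b went from 35 to 87 with 123 in the input. Near Usp18, Tuba8 went from 68 to 165 tags with 102 in the input and the overlapping noncoding Gm15856 from 16 to 42 with 24. The TSS window of Gm15856 went from 25 to 109 tags with 26 in the input, a ratio of 5.31 (3.42 to 8.57). That of Tuba8 went from 5 to 4 with 4 in the input. On the far side of Ifit1, Slc16a12 had 114 tags before LPS and 73 after it against 377 in the input. Near Isg15, 2310042D19Rik went from 175 to 399.

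Of 4 genes of ISG15 conjugation, 3 were at least 2 times higher over the body and none was 2 times lower. Herc6, the main ISG15 ligase of the mouse, went from 310 to 1529 tags (6.01, 5.32 to 6.81), the conjugating enzyme Ube2l6 from 295 to 1029 (4.25, 3.73 to 4.86) and the ubiquitin and ISG15 ligase Trim25 from 1809 to 3408 (2.30, 2.17 to 2.43). The activating enzyme Uba7 went from 275 to 399 (1.77, 1.51 to 2.07). The deconjugating Usp18 at 3.80 stood inside this range, and Isg15 itself at 8.15 above it.

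Of 14 genes of interferon signalling, 8 were at least 2 times higher and none was 2 times lower, with a median ratio of 2.15. The cytokine gene Ifnb1 had 3 tags before LPS, 26 after it and 7 in the input, a ratio of 10.6 (3.24 to 54.5). The feedback inhibitor Socs1 (4.10), the transcription factors Irf7 (2.62) and Stat2 (2.19), and the kinases Ikbke (2.57), Tyk2 (2.49) and Tbk1 (2.10) were among the others that passed. Irf9 (1.64), Jak1 (1.13), the adaptor Ticam1 (0.9398), Irf3 (0.811) and the receptor genes Ifnar2 (0.910) and Ifnar1 (0.656) did not. Of the 9 antiviral genes only Usp18 had a smaller body ratio than Socs1.

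Of 39 further interferon-stimulated genes, 29 were at least 2 times higher and none 2 times lower, with a median ratio of 2.72, from 1.17 for Phf11 to 45.8 for the GTPase gene Gbp2, which had 29 tags before LPS and 1090 after it. The 10 LPS response genes had a median ratio of 38.6, from 6.17 for the NF-kB inhibitor Nfkbia to 396 for the chemokine gene Ccl5, and all 10 passed. The 10 housekeeping genes had a median of 0.861, from 0.631 for Hprt to 1.44 for Pgk1, and none passed in either direction. The median of 12.7 over the 9 antiviral genes thus lay between that of the other interferon-stimulated genes and that of the LPS response genes. Members and lists were chosen with earlier results of these data known, so this order describes the listed genes only.

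By gene-body density in the 3 libraries, the coding genes outside the list that lay closest to the median of the 9 were Traf1 (distance 0.62 in log2 units, 388 tags before LPS and 2704 after it, ratio 8.49), Icosl (0.81, ratio 7.14), Il27 (0.86, ratio 7.45), Fpr2 (0.93, ratio 6.83) and Gm11428 (0.95, ratio 12.1). The distance was taken over 3 libraries only.

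The labelled cell type was checked on its markers. Of 8 macrophage markers, 7 had more than 2 times the input density in each Ser5 library, and their summed density was 234 TPM per kb untreated and 246 after LPS, with Itgam below that level only after LPS and Mertk only before it. After LPS 4 of the 8 were at least 2 times lower and 2 at least 2 times higher. For markers of T cells, B cells, dendritic cells, fibroblasts, epithelium and liver, none exceeded 2 times the input in either library, and of the 4 granulocyte markers 1 (Camp) did, after LPS. The libraries held 7616771 (untreated Ser5), 6249819 (LPS Ser5) and 7533308 (input) tags on chromosomes 1 to 19 and X, of 45, 30 and 36 bases, and 81.4% to 84.5% of all tags lay at distinct positions. The lengths of the Ser5 tags are the reverse of those that the study's methods give for the 2 libraries. The LPS response genes were higher in the library labelled LPS.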

How the data were processed

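Ser5 ChIP and input DNA were sequenced, and the authors aligned the trimmed reads to mm9 with Bowtie, keeping tags with a unique match, and called peaks with MACS in each Ser5 library against the input, without pooling. The tool versions are not given in the sources used here. Each line of the deposited tag files is a tag with its coordinates and strand. In the deposited peak files the score is minus 10 log10 of the MACS p-value, with a lowest score of 50.

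Tags were counted by their 5′ end in genes of GENCODE M1 (mm9, chromosomes 1 to 19 and X) and expressed as TPM, tags per 1000000 tags counted on these chromosomes, or as TPM per kb. With 1 library per condition no test was made. Intervals are exact 95% intervals (Poisson for counts, conditional on the sum for ratios, conditional odds ratios for the part of the gene) and cover counting error only. A gene was called higher or lower at a ratio of at least 2 in either direction if its Ser5 tags summed to 10 or more, 0 tags being set to 0.5. A peak counted for a window that it overlapped by at least 1 bp. Tag sequences were called unique if the exact sequence occurs once in mm9, with no mismatch allowed. The members and gene lists were chosen with earlier results of these data known. Named genes are the 9 members, annotated genes within 20 kb of them, the 5 coding genes closest in density, the genes of ISG15 conjugation and interferon signalling (1 of which is not reported here), and the extremes of the other lists. Python 3.11.15 with numpy 2.4.6, scipy 1.17.1, pandas 2.3.3, numba 0.67.0 and matplotlib 3.10.9 was used. On simulated data the ratio intervals held the true value in 96.8% of 2000 cases. The alternatives were identical tags counted once, a shift of the tags by 75 bp, scaling to tags outside peaks, other thresholds, windows and starts, unique positions, and peaks with p of at most 1e-10.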

Additional observations from a re-analysis of the deposited data

How the results depend on the processing

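The counts of the 9 genes stayed within 1.5 times of the reported ones under each alternative. All 9 were at least 2 times higher over the body with identical tags counted once, tags moved 75 bp, scaling to tags outside the peaks, no filter, at least 50 tags or unique positions, as were 8 of 8 without the first kb of the body, and 8 at a threshold of 4 (Usp18 falls below it). In the TSS window 8 became 9 with scaling to tags outside the peaks, which multiplies each ratio by 1.08, or with the Ifit2 window at its second exon (chosen after seeing the data), and 7 with at least 50 tags or a threshold of 4. With peaks of p at most 1e-10 the untreated TSS peaks fell from 8 to 7. No ratio of a single gene changed its direction. Of 44 gene-body ratios under the alternatives 2 left the interval of the reported value (Rsad2 at 66.1 with identical tags counted once, Cmpk2 at 45.01 without its first kb), and of 46 TSS-window ratios 9 did. Without a filter on tags 13.3% of coding genes passed in the TSS window (2979 genes, against 700), at a threshold of 4 1.75% (219), and for the body 7.91% (1767, against 1014) and 1.39% (242). With at least 50 tags required, 382 of 10280 genes (3.72%) passed in the TSS window. No paired analysis was possible because each condition has 1 library. Tag numbers limit Ifit3 most, and no spread between cultures can be given.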
